A study of Mus musculus with 6 samples.

Results

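Insulin-like growth factors (IGFs) and their binding proteins were followed through the stromal cells of mouse colon tumors. The genes are the ligands *Igf1* and *Igf2* and the binding proteins *Igfbp2*, *Igfbp3*, *Igfbp4*, *Igfbp5*, *Igfbp6* and *Igfbp7*, chosen by name as 8 of the 19069 genes listed over all plates. Single viable EPCAM-, CD45- and CD31-negative cells were sorted into 384-well plates, 1 plate per mouse, and their mRNA was counted by SORT-seq, which tags each molecule at its 3′ end with a barcode before amplification. The mice were 3 FibCtrl animals (plates 1, 3 and 4), negative for the Col6a1Cre transgene, and 3 FibΔZeb1 animals (plates 2, 5 and 6), positive for it. Per the study's methods, both genotypes carried the floxed *Zeb1* alleles and were age-matched littermates of both sexes with tumors induced by AOM/DSS (azoxymethane and dextran sulfate sodium), while the deposited labels give colon tumor as tissue and no treatment. Cre was constitutive and driven by *Col6a1*, so that only cells with an active *Col6a1* promoter recombine. Plate 6 was in another sequencing run than the other plates, so that mouse and run cannot be told apart for it.

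IGF1 and IGF2 are secreted peptides that activate the IGF1 receptor and promote growth and survival of neighboring cells. IGFBP1 to IGFBP6 bind both ligands with high affinity, prolong their life and keep them from the receptor until proteases such as PAPPA cleave the carrier, whereas IGFBP7 binds IGFs weakly and is known as a matrix protein around blood vessels. In the intestine, mesenchymal cells are a main local source of IGF1 for the epithelium.

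Of 2304 wells, 1233 had 100 to 6000 genes and under 10% mitochondrial transcripts, 109 to 298 per plate. These wells were assigned to cell types by marker lists that hold none of the 8 genes. There were 613 fibroblast wells, of which 240 were inflammatory fibroblast-like (iCAF-like; led by *Sfrp4*, *Ptx3* and *Inmt*), 140 were led by *Cxcl13*, *Hapln1* and *Edil3* (the Cxcl13/Grem1 gate), 127 were telocyte-like (*Mmp13*, *Mmp10*, *Il1rl1*) and 106 had no subtype. Another 50 wells were pericyte-like (*Rgs5*, *Rgs4*, *Notch3*), 88 epithelial-like and 436 neutrophil-like, although the sort was negative for EPCAM and CD45. Neutrophil-like wells made up 85.1% of plate 3 and 63.3% of plate 6 but 7.96% to 27.2% of the other plates, and plates 3 and 6 held only 22 and 15 fibroblast wells. Kept wells had a median of 1687 to 11164 transcripts per plate. Levels are given in transcripts per 1e6 transcripts of the summed wells of a plate and gate (CPM), for plates with at least 10 wells in that gate unless another number is stated. Neutrophil-like wells, which should lack these genes, served as the background, and transcripts found there may be free RNA shared between wells.

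**Figure D1:**
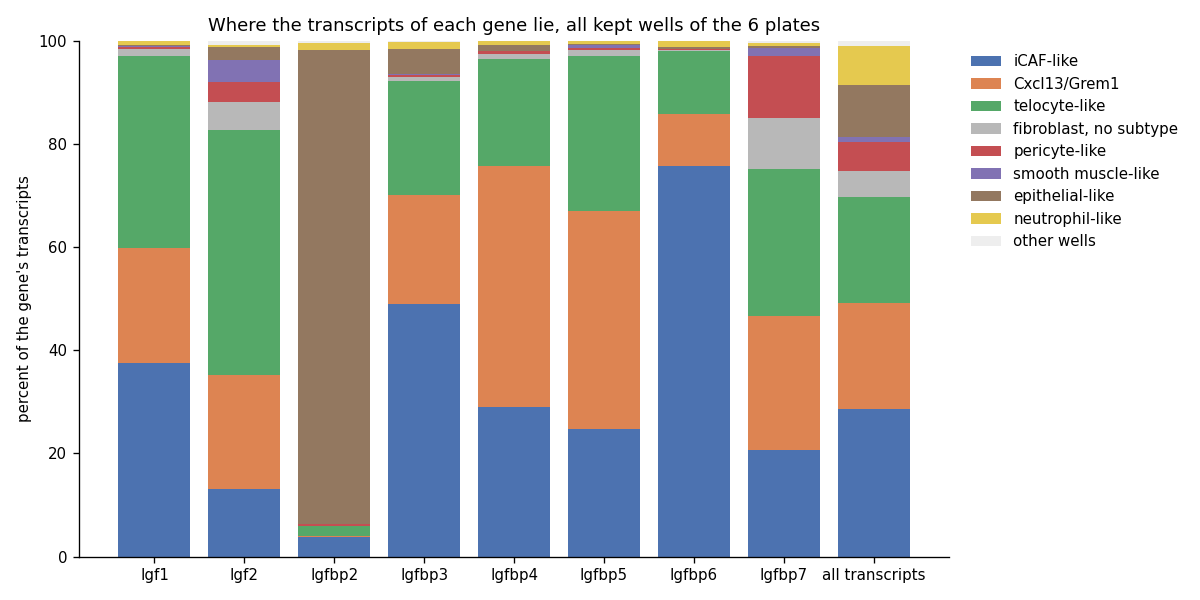
Stacked bars give the percentage of each gene's transcripts that lay in wells of each marker gate, over all 1233 kept wells, with all transcripts in the last bar. *Igfbp6* lay mostly in iCAF-like wells (75.7%), *Igfbp2* in epithelial-like wells (91.9%) and *Igfbp4* in the Cxcl13/Grem1 gate (46.8%), whereas *Igfbp7* was the gene with the largest pericyte-like share (12.1%).

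The ligands differed in abundance. *Igf1* (chr10:87858265-87937042, plus strand, GRCm38 as in all positions here) was detected in 540 wells, and of its 5858 transcripts 37.5% were in iCAF-like, 22.4% in Cxcl13/Grem1 and 37.2% in telocyte-like wells, gates that held 28.6%, 20.5% and 20.5% of all transcripts. *Igf2* (chr7:142650766-142666816, minus strand) summed to 261 transcripts in 105 wells. Of the transcripts of *Igf1*, 50% were held by 65 of its 540 wells, and of those of *Igf2* by 20 of its 105.

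In iCAF-like wells, *Igf1* was at 666, 715 and 1101 CPM in plates 1, 2 and 5. The Cxcl13/Grem1 gate had 546, 518 and 1792 CPM in plates 1, 2 and 4. In telocyte-like wells the level was 1322, 877 and 1080 CPM in the same plates. These ranges overlap, and none of the 3 contrasts between fibroblast gates passed the test for *Igf1*, with log2 fold changes of -0.17 (SE 0.32), 0.24 (SE 0.34) and 0.41 (SE 0.29) for iCAF-like against telocyte-like, iCAF-like against Cxcl13/Grem1 and telocyte-like against Cxcl13/Grem1 wells. Pericyte-like wells stood apart, at 46.1, 30.6 and 69.8 CPM in plates 1, 2 and 4, which is within the 22.3 to 104 CPM of the neutrophil-like background. Counted per well at full depth, pericyte-like wells had a mean of 0.52 *Igf1* barcodes against 0.0963 in neutrophil-like wells. The latter were shallower, with a median of 1451 against 10842 transcripts.

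*Igf2* was at 28.7, 43.3 and 109 CPM in telocyte-like wells of plates 1, 2 and 4, at 19.1, 29.1 and 13.7 CPM in the Cxcl13/Grem1 gate of these plates and at 11.0, 11.96 and 15.7 CPM in iCAF-like wells of plates 1, 2 and 5. All 3 telocyte-like libraries were thus above all 3 iCAF-like ones. The log2 fold change of iCAF-like against telocyte-like wells was -1.68 (SE 0.55, adjusted p = 0.0496 in edgeR), which lost significance in 8 of 15 alternatives. Outside the fibroblasts, the 7 smooth muscle-like wells of plate 1 had 223 CPM, from 11 transcripts. The 3, 2 and 2 such wells of plates 2, 4 and 5 had 0 *Igf2* transcripts.

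The binding proteins were divided between gates. *Igfbp6* (chr15:102144362-102149511, plus strand) was highest in iCAF-like wells, *Igfbp4* (chr11:99041244-99054392, plus strand) in the Cxcl13/Grem1 gate, and *Igfbp7* (chr5:77349240-77408041, minus strand) in pericyte-like wells. Among fibroblasts, *Igfbp5* (chr1:72857932-72874884, minus strand) and *Igfbp3* (chr11:7206086-7213923, minus strand) varied between plates of the iCAF-like gate as much as between gates. Both were lower in pericyte-like wells than in the fibroblast gates.

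**Figure D2:**
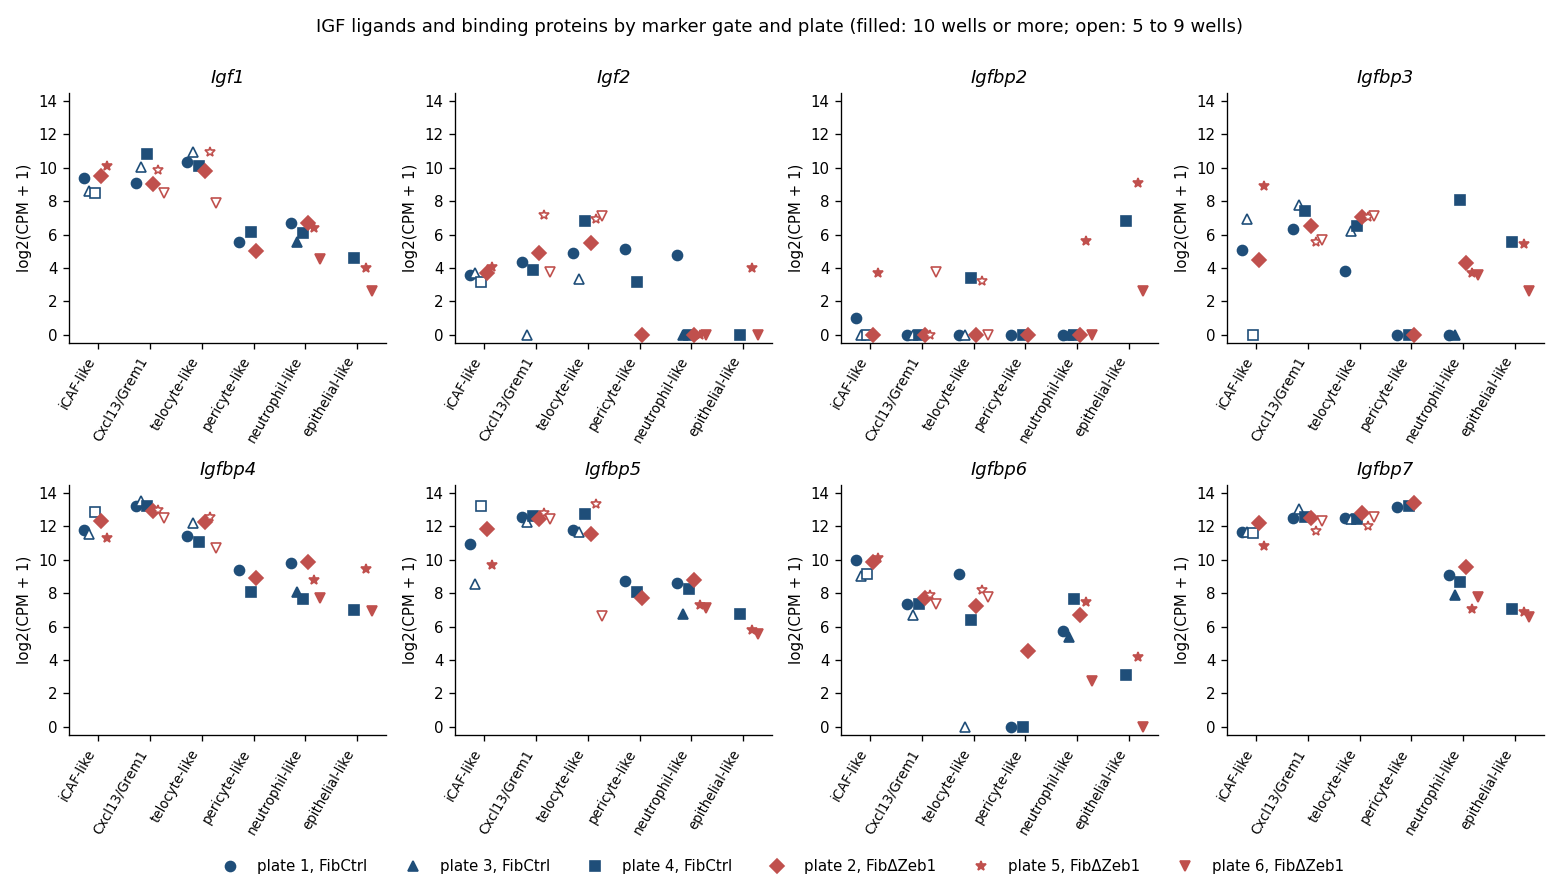
Each point is the level of a gene in 1 plate and gate as log2(CPM + 1), with blue for FibCtrl and red for FibΔZeb1 mice, a symbol for each plate, filled points for 10 wells or more and open points for 5 to 9 wells. In the pericyte-like gate *Igfbp7* lies above, and *Igf1*, *Igfbp4*, *Igfbp5* and *Igfbp6* lie within or under the range of, the neutrophil-like points.

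*Igfbp6*, a binding protein with a preference for IGF2, was at 1033, 951 and 1108 CPM in iCAF-like wells of plates 1, 2 and 5. The Cxcl13/Grem1 gate had 161, 211 and 164 CPM in plates 1, 2 and 4, and telocyte-like wells had 571, 151 and 84.6 CPM. Every iCAF-like library was above every library of the other gates, with 1031 ± 78.9 CPM (SD, n = 3) against 179 ± 27.7 and 269 ± 264 CPM (SD, n = 3 each). The log2 fold change was 2.03 against telocyte-like (SE 0.41, adjusted p = 0.0013) and 2.30 against Cxcl13/Grem1 wells (SE 0.43, adjusted p = 0.0019) in edgeR. Both calls were lost without plate 2 (adjusted p = 0.075 and 0.071 in edgeR), and the second with DESeq2 (adjusted p = 0.068), at log2 fold changes of 1.63 to 2.20. The smaller iCAF-like groups of 6 and 8 wells in plates 3 and 4 had 515 and 558 CPM.

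*Igfbp4*, the main substrate of the protease PAPPA, was at 9448, 7708 and 9573 CPM in the Cxcl13/Grem1 gate of plates 1, 2 and 4 and at 2750, 4897 and 2125 CPM in telocyte-like wells of the same plates. The groups did not overlap. The log2 fold change of telocyte-like against Cxcl13/Grem1 wells was -1.60 (SE 0.29, adjusted p = 0.00075 in edgeR), and it stayed past the threshold in all 15 alternatives, between -2.07 and -1.10. In iCAF-like wells *Igfbp4* was at 3475, 5041 and 2563 CPM in plates 1, 2 and 5, also under every Cxcl13/Grem1 library, but the contrast missed the threshold (log2 fold change -1.12, SE 0.34, adjusted p = 0.077 in edgeR). It passed in 4 alternatives, among them the gate with a clear margin over the next list (log2 fold change -1.11, adjusted p = 0.0017 in edgeR).

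*Igfbp5*, which binds to extracellular matrix, was at 6193, 5562 and 6363 CPM in the Cxcl13/Grem1 gate of plates 1, 2 and 4, a spread of 422 CPM (SD, n = 3). In telocyte-like wells it was at 3488, 3030 and 6780 CPM, and in iCAF-like wells at 1976, 3677 and 819 CPM in plates 1, 2 and 5. The iCAF-like libraries were all lower than the Cxcl13/Grem1 ones, while plate 4 placed a telocyte-like library above them. None of the 3 contrasts passed, and the largest was -0.80 for iCAF-like against Cxcl13/Grem1 wells (SE 0.34, adjusted p = 0.27 in edgeR). Small groups of wells were further apart still, with 9642 CPM in the 8 iCAF-like wells of plate 4 and 372 CPM in the 6 of plate 3, or 10567 CPM in the 8 telocyte-like wells of plate 5 and 100.3 CPM in the 6 of plate 6.

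Pericyte-like wells, from mural cells that wrap small vessels, carried 1 of the binding proteins at a high level. *Igfbp7* was at 9120, 10724 and 9573 CPM in plates 1, 2 and 4, against 5742, 5812 and 5977 CPM in the Cxcl13/Grem1 gate and 5922, 7230 and 5575 CPM in telocyte-like wells of the same plates. In iCAF-like wells it was at 3293, 4637 and 1808 CPM in plates 1, 2 and 5. Among these 12 libraries the pericyte-like ones were above those of the 3 fibroblast subtype gates, and the iCAF-like ones were the lowest, while fibroblast wells without a subtype ranged from 920 CPM in plate 5 to 12547 CPM in plate 2. Against the mean of the 3 fibroblast gates the log2 fold change was 0.69 (SE 0.20, adjusted p = 0.016 in edgeR), and without plate 2 it was 0.69 with an adjusted p of 0.30.

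The test found 5 other members lower in pericyte-like than in fibroblast wells. The log2 fold changes against the 3 fibroblast gates were -4.55 for *Igf1* (SE 0.38), -3.63 for *Igfbp4* (SE 0.31), -4.12 for *Igfbp5* (SE 0.33) and -5.03 for *Igfbp6* (SE 0.62), with adjusted p-values from 1.4e-09 to 1.2e-06 in edgeR. *Igfbp4* was at 668, 473 and 272 CPM and *Igfbp5* at 426, 206 and 272 CPM in plates 1, 2 and 4, inside the ranges of neutrophil-like wells of 203 to 934 and of 106 to 444 CPM. Neutrophil-like wells were shallower (median of 1451 against 10842 transcripts), and per well, without thinning, pericyte-like wells had a mean of 4.66 *Igfbp4* and 2.76 *Igfbp5* barcodes against 0.681 and 0.326 in neutrophil-like wells. At 1000 barcodes per well the means were 0.34 and 0.2 against 0.425 and 0.195. *Igfbp6* had 5 transcripts in the 3 libraries together. *Igfbp3* had none, and with the limit of 3 counts over the 3 libraries it was at least 17.5-fold lower than the 118 CPM of the fibroblast gates, while the fitted contrast (adjusted p = 0.00066 in edgeR) missed the threshold with the outlier filter on mitochondrial transcripts (log2 fold change -1.95, adjusted p = 0.11 in edgeR). For *Igf2*, with 4 transcripts in these libraries, the contrast did not pass (log2 fold change -1.79, SE 0.77, adjusted p = 0.13 in edgeR). In all, 5 of 7 members tested were lower and 1 was higher, with a median log2 fold change of -4.12, where 8.18% of the 10292 genes tested were lower and 15.7% were called in either direction, with a median of -0.066. Pericyte-like wells carried fibroblast transcripts as well, with the sum of the 10 fibroblast markers at 12738 to 15277 CPM against 36997 to 69452 CPM in the fibroblast subtype gates of 10 wells or more, and the 10 pericyte markers at 9080 to 11292 against 103 to 1378 CPM.

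**Figure D3:**
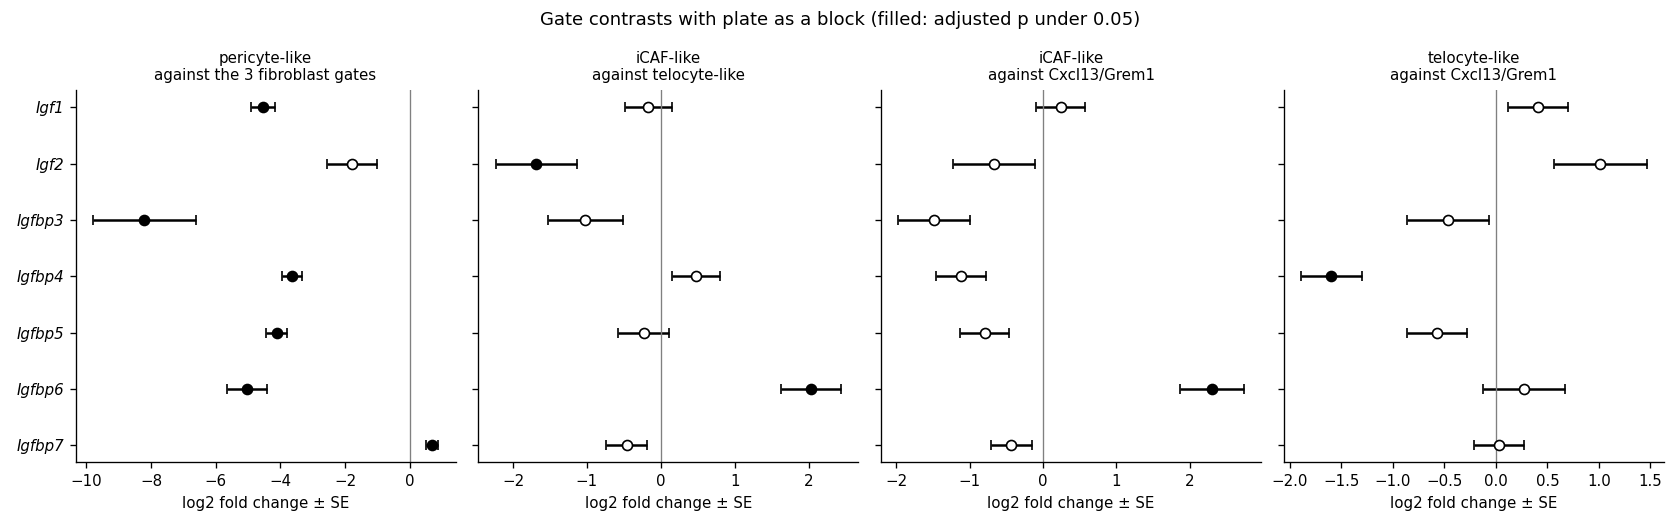
Points give the log2 fold change of 7 genes in each of 4 contrasts between gates with standard errors, filled where the adjusted p was under 0.05. The pericyte-like contrast separates *Igfbp7* at 0.69 from the other genes, and *Igfbp6* is the member that passed in both iCAF-like contrasts in the higher direction.

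Between fibroblast gates the calls among members were few. Of 7 members tested, 2 passed for iCAF-like against telocyte-like wells (*Igfbp6* higher, *Igf2* lower), 1 for iCAF-like against Cxcl13/Grem1 (*Igfbp6*) and 1 for telocyte-like against Cxcl13/Grem1 wells (*Igfbp4*), where 11.4%, 3.69% and 6.92% of all genes tested did. The contrasts rest on 12 libraries of plates 1, 2, 4 and 5, with the plate as a block, and share libraries. Plate 5 gave only an iCAF-like library, which its own block takes up. Comparisons of iCAF-like wells with another gate within a plate thus came from plates 1 and 2 only, 1 mouse of each genotype. *Igfbp2* was too low to be tested in any of the contrasts.

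Wells of the fibroblast gate without a subtype were a mixed set. Their median depth was 2075 transcripts, and their leading genes were mast cell, erythrocyte and muscle genes (*Mcpt1*, *Mcpt2*, *Beta-s*, *Car3*). In plate 2, *Igfbp7* was at 12547 CPM in 35 such wells, while *Igf1* was at 27.9, *Igfbp4* at 528 and *Igfbp5* at 140 CPM. The pericyte markers summed there to 5361 CPM, and to 1112 to 5972 CPM over the 5 plates that had such wells. Their part in the *Igfbp7* level was not tested.

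*Igfbp3*, the main carrier of IGFs in blood, depended on 1 plate in iCAF-like wells. It was at 33.0, 21.3 and 487 CPM in plates 1, 2 and 5, at 80.6, 90.7 and 171 CPM in the Cxcl13/Grem1 gate of plates 1, 2 and 4 and at 13.03, 134 and 89.4 CPM in telocyte-like wells of those plates. Of these 3 plates, FibΔZeb1 plate 5 alone had a high iCAF-like level. The background reached 270 CPM in the 18 neutrophil-like wells of plate 4, from 8 transcripts, and was at 0 to 18.5 CPM in the other plates. In plate 5, 25.8% of 93 iCAF-like wells had an *Igfbp3* barcode when each well was thinned to 1000 barcodes, against 2.53% of 79 wells in plate 1 and 0 of 50 in plate 2 (95% exact interval up to 7.11%, for wells with a barcode at this depth). Without thinning, *Igfbp3* was detected in 6 of the 50 wells of plate 2, 10 of 79 in plate 1 and 31 of 93 in plate 5. The 15 wells of plate 5 with at least 2 transcripts of both *Myoc* and *Angptl7*, all iCAF-like, had 929 CPM of *Igfbp3*, and without them the iCAF-like level of the plate was 418 CPM. *Igf1* was also higher there, with 2517 CPM in these wells and 879 CPM in the other iCAF-like wells of plate 5.

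In the thinned iCAF-like wells of plate 5, *Igfbp3* went with *Igf1*. A barcode of *Igfbp3* was found in 23 of 53 wells with one of *Igf1* (43.4%) and in 1 of 40 wells without (2.5%). Without the *Myoc* and *Angptl7* wells the numbers were 15 of 41 (36.6%) and 1 of 37 (2.7%). Over all 93 iCAF-like wells of plate 5, *Igfbp5* was found less in those with *Igf1*, with 10 of 53 wells (18.9%) and 18 of 40 wells (45%), while *Igfbp4* was in 62.3% and 70% of them. Over the iCAF-like wells of all plates, plate 5 included, *Igfbp5* was in 38 of 114 wells with *Igf1* (33.3%) and 57 of 126 without (45.2%). The other plates were not taken alone, so that this relation is shown for plate 5 only. In telocyte-like wells, those with *Igf1* more often had *Igfbp4* in plates 1, 2 and 4, with 80%, 96% and 70.6% against 50%, 78.3% and 41.2% of the other wells. *Igfbp5* also went with *Igf1* in these telocyte-like wells, with 80%, 80% and 58.8% against 57.1%, 47.8% and 41.2%. These wells come from 1 mouse each, so that the shares are descriptions without a test.

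The share of positive wells depends on depth, and wells were therefore also compared at equal depth. The plot of shares at 1000 barcodes per well shows *Igfbp4* in 99.3% and *Igfbp5* in 92.1% of 140 Cxcl13/Grem1 wells, and *Igfbp6* in 54.2% of 240 iCAF-like but 7.87% of 127 telocyte-like wells (95% exact interval of the former 47.6% to 60.6%). *Igf1* was found in 47.5% of iCAF-like, 32.1% of Cxcl13/Grem1 and 48.0% of telocyte-like wells, whereas the 4% in pericyte-like wells was no higher than the 5.19% of neutrophil-like ones. *Igfbp7* was in all 50 pericyte-like wells and in 27.3% of neutrophil-like wells. Without thinning, *Igf1* was detected in 81.1% to 87.9% of wells of the 3 fibroblast gates, 26% of pericyte-like and 9.17% of neutrophil-like wells. Median depth was 1451 transcripts in neutrophil-like wells, 10842 in pericyte-like wells and 10345 to 15024 in the fibroblast gates. For some members the order of the gates changed with thinning. *Igf1* was in 85% of Cxcl13/Grem1 wells before thinning, above the telocyte-like share. *Igfbp3* was in 37.9% of Cxcl13/Grem1 and 20% of iCAF-like wells before thinning but in 5% and 11.2% at equal depth. Both iCAF-like shares of *Igfbp3* are pooled over plates and came mostly from plate 5, as given above. Intervals cover counting error only.

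**Figure D4:**
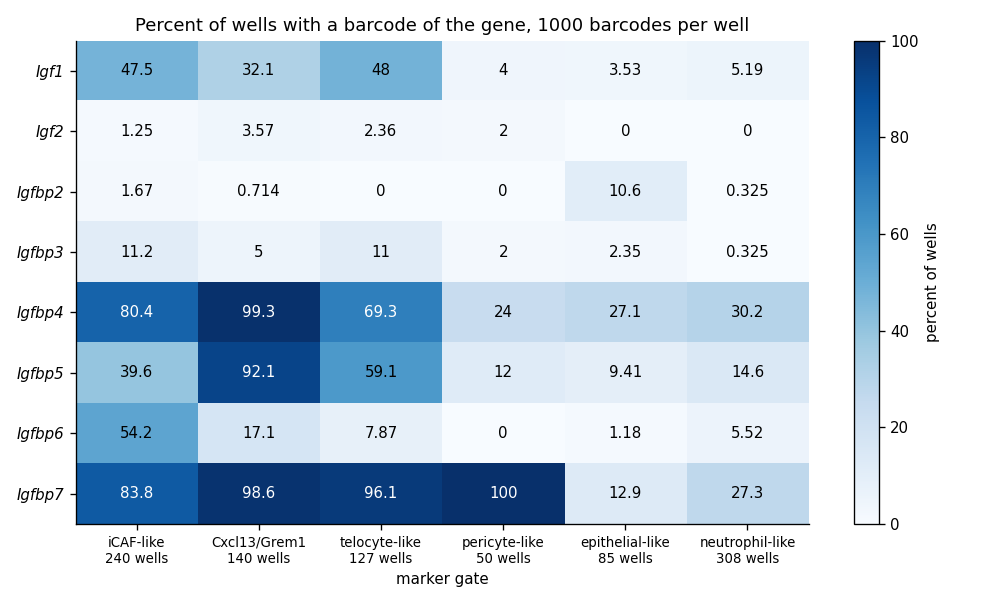
The heat map gives the percentage of wells with at least 1 barcode of a gene (rows) in each gate (columns), after every well was thinned to 1000 barcodes and shallower wells were left out (128 neutrophil-like, 38 fibroblast wells without a subtype and 3 epithelial-like ones). *Igfbp6* has its highest share in iCAF-like wells (54.2%) and *Igfbp7* in pericyte-like wells (100%).

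*Igfbp2* (chr1:72824503-72852474, plus strand) lay mainly outside the fibroblast gates. Although it ends 5457 bases before *Igfbp5* on chromosome 1, 91.9% of its 271 transcripts were in epithelial-like wells, and 5 wells held 50% of them. The level in epithelial-like wells was 536 CPM in plate 5, 111 CPM in plate 4 and 5.22 CPM in plate 6. In plate 5 it was found in 13 of 27 such wells, and these 27 wells had *Krt14*, a keratin of basal squamous cells, at 2491 and *Krt8*, a keratin of simple epithelium, at 63.7 CPM. Plate 6, with *Igfbp2* in 1 of 18 epithelial-like wells, had *Krt14* at 36.6 and *Krt8* at 3906 CPM. The 4 epithelial-like wells of plate 1 had *Krt14* at 2842 CPM but no *Igfbp2* transcript. Plates 2 and 3 did not list the gene, and the fibroblast subtype libraries had at most 11.8 CPM.

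Among 28 other genes of the pathway, 19 could be tested between gates. Of the receptors, *Igf1r* was lower in pericyte-like wells (150, 122 and 69.8 CPM in plates 1, 2 and 4) than in the mean of the 3 fibroblast gates (log2 fold change -0.96, SE 0.27, adjusted p = 0.013 in edgeR). This did not hold for each gate, since iCAF-like wells were at 87.5 to 170 CPM, overlapping the pericyte-like range. At 225 to 280 CPM *Igf1r* was highest in the Cxcl13/Grem1 gate among fibroblasts, although *Igf1r* was also at 240 to 416 CPM in neutrophil-like wells. The ligand-clearing receptor *Igf2r* and the insulin receptor *Insr* passed in none of the 4 contrasts. Against the fibroblast gates, 3 of the 19 pathway genes were higher and 5 lower in pericyte-like wells, where 15.7% of all genes were called in either direction and 8.18% were lower.

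The protease *Pappa*, which frees IGFs by cutting IGFBP4, had its highest level in telocyte-like wells. It was at 301, 225 and 220 CPM in telocyte-like wells of plates 1, 2 and 4, at 68.3, 105 and 88.7 CPM in the Cxcl13/Grem1 gate and at 28.0, 11.96 and 7.84 CPM in iCAF-like wells of plates 1, 2 and 5, with no overlap between gates. *Pappa* was higher in telocyte-like than in iCAF-like wells (log2 fold change of iCAF-like against telocyte-like wells -3.36, SE 0.37, adjusted p = 8.2e-07 in edgeR) and than in Cxcl13/Grem1 wells (log2 fold change 1.43, SE 0.28, adjusted p = 0.0014 in edgeR). Telocyte-like wells thus had more *Pappa* and less of its substrate *Igfbp4* than the Cxcl13/Grem1 gate.

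Of other proteases that act on IGFBPs, *Htra3* was at 491 to 1131 CPM in iCAF-like and 604 to 869 CPM in Cxcl13/Grem1 wells but at 23.3 to 34.5 CPM in pericyte-like wells (log2 fold change against the fibroblast gates -4.52, SE 0.37, adjusted p = 2.7e-09 in edgeR). *Htra1* was at 762 to 1066 CPM in telocyte-like and at 166 to 205 CPM in iCAF-like wells (log2 fold change of iCAF-like against telocyte-like wells -1.76, SE 0.28, adjusted p = 8.7e-05 in edgeR). *Adamts1* was higher in pericyte-like wells, at 388 to 1261 CPM against 89.5 to 676 CPM (log2 fold change 1.80, SE 0.26, adjusted p = 9.9e-06 in edgeR), with an overlap between the groups. *Stc1*, whose product inhibits PAPPA, was at 41.0 to 417 CPM in telocyte-like and 38.8 to 150 CPM in pericyte-like wells, at 0.999 to 3.99 CPM in iCAF-like wells and at 0 in the 3 Cxcl13/Grem1 libraries. Among adaptors, *Grb10*, an inhibitor of the IGF1 receptor, was at 21.7 to 59.6 CPM in telocyte-like against 182 to 199.96 CPM in Cxcl13/Grem1 wells (log2 fold change -2.36, SE 0.30, adjusted p = 7.2e-06 in edgeR), and *Pik3r1*, a regulatory subunit of PI3 kinase, was higher in pericyte-like wells at 163 to 196 CPM (log2 fold change 1.24, SE 0.24, adjusted p = 0.00040 in edgeR).

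The genes with the most similar pattern were taken by Pearson correlation of log2(CPM + 1) over the 12 libraries, among 6883 genes with a mean of at least 20 CPM. They were *Tgfbr2*, *Colec12* and *Ogn* for *Igf1* (r of 0.97 each), *Chrdl2*, *Lamp2* and *Hs3st1* for *Igfbp4* (r of 0.98 each) and *Cstb*, *Tgm2* and *Bmp4* for *Igfbp5* (r of 0.97 to 0.98). *Igfbp6* was most like *Jam2*, *S100a16* and *Mcc* (r of 0.96 to 0.98), *Igfbp7* most like *Ednra*, *Gm13889* and *Epas1* (r of 0.96 to 0.99) and *Igfbp3* most like *Aldh1a3*, *5031426D15Rik* and *Slc43a3* (r of 0.93 to 0.95). For *Igf2* they were *Tmem214*, *Gpr108* and *Fam210b* (r of 0.91 to 0.95), and for *Igfbp2*, with a mean of 1.87 CPM in these libraries, *Ptplb*, *Amotl2* and *Gas5* (r of 0.86 to 0.88). Libraries of 1 gate and of 1 plate share cells' origin, and the ranking depends on the measure, since 4 of these 24 genes were also among the first 3 by Spearman correlation. Among the members, *Igf1* ran with *Igfbp3* (r of 0.89) and *Igfbp4* with *Igfbp5* (r of 0.89), while *Igfbp7* had negative values with each of the others, from -0.75 to -0.21. These values include the 3 pericyte-like libraries, with no *Igfbp3* transcript and *Igf1* at 30.6 to 69.8 CPM. Correlations over the fibroblast libraries alone were not computed, so that a link within fibroblasts is not shown.

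ZEB1 is a zinc-finger repressor that binds E-boxes of the sequence CACCTG. The 250 bases before each RefSeq start of the 8 genes (12 windows, GRCm38.p6) were searched for CACCTG on both strands and for a TATA box, TATAAA, on the strand of the gene, motifs that do not overlap. A CACCTG box was found before *Igfbp3* alone, 172 bases before the start, where 17.2% of all 32851 windows have one, and a TATA box before *Igfbp4* alone, 28 bases before the start, where 7.59% of windows have one. A match is a description of the letters. To show the starts of the 5 binding proteins compared between gates, 100 bases of each are given 5′ to 3′ on the strand of the gene, with the motifs in capitals (CAGGTG is CACCTG on the other strand). They lie at chr11:7214024-7214123 (*Igfbp3*, minus strand, 200 to 101 bases before the start), chr11:99041144-99041243 (*Igfbp4*, plus), chr1:72874866-72874965 (*Igfbp5*, minus), chr15:102144086-102144185 (*Igfbp6*, plus) and chr5:77408046-77408145 (*Igfbp7*, minus), the last 4 directly before the start.
Igfbp3: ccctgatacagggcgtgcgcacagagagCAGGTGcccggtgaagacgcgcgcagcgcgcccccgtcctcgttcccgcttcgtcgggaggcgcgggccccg
Igfbp4: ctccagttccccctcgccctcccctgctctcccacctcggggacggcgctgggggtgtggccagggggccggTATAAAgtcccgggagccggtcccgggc
Igfbp5: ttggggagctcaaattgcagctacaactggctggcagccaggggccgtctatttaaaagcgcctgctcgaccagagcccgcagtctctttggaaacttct
Igfbp6: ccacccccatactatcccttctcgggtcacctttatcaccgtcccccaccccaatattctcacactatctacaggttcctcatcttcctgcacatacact
Igfbp7: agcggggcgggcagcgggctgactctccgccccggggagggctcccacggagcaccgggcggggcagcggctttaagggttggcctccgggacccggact

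To ask whether loss of *Zeb1* in fibroblasts altered these genes, transcripts were summed per mouse over the fibroblast-gated wells. *Zeb1* itself was at 111, 100.1 and 93.6 CPM in FibCtrl plates 1, 3 and 4 and at 55.9, 69.1 and 65.7 CPM in FibΔZeb1 plates 2, 5 and 6. The genotypes did not overlap (exact two-sided permutation test, p = 0.10, the smallest that 3 mice against 3 allow), with a log2 fold change of -0.66 (SE 0.22, adjusted p = 0.9997, unadjusted p = 0.014 in edgeR). Counting at the 3′ end need not fall in the deleted part of the gene, so that this level is no direct measure of recombination.

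No member passed the test between genotypes, and for each of the 8 the mice of both genotypes overlapped. *Igf1* was at 731, 1121 and 1056 CPM in FibCtrl and at 641, 1099 and 515 CPM in FibΔZeb1 mice, in the order of the plates, with a log2 fold change of -0.30 (SE 0.33). *Igfbp4* was at 5283, 5333 and 4497 CPM and at 5424, 3356 and 3335 CPM (log2 fold change -0.30, SE 0.26). For both genes the ranges of the genotypes overlapped. *Igfbp5* was at 3624, 2401 and 6923 against 3744, 2633 and 3029 CPM (log2 fold change -0.42, SE 0.36), and *Igfbp7* at 4679, 6516 and 5176 against 6553, 2156 and 5530 CPM (log2 fold change -0.18, SE 0.37).

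**Figure D5:**
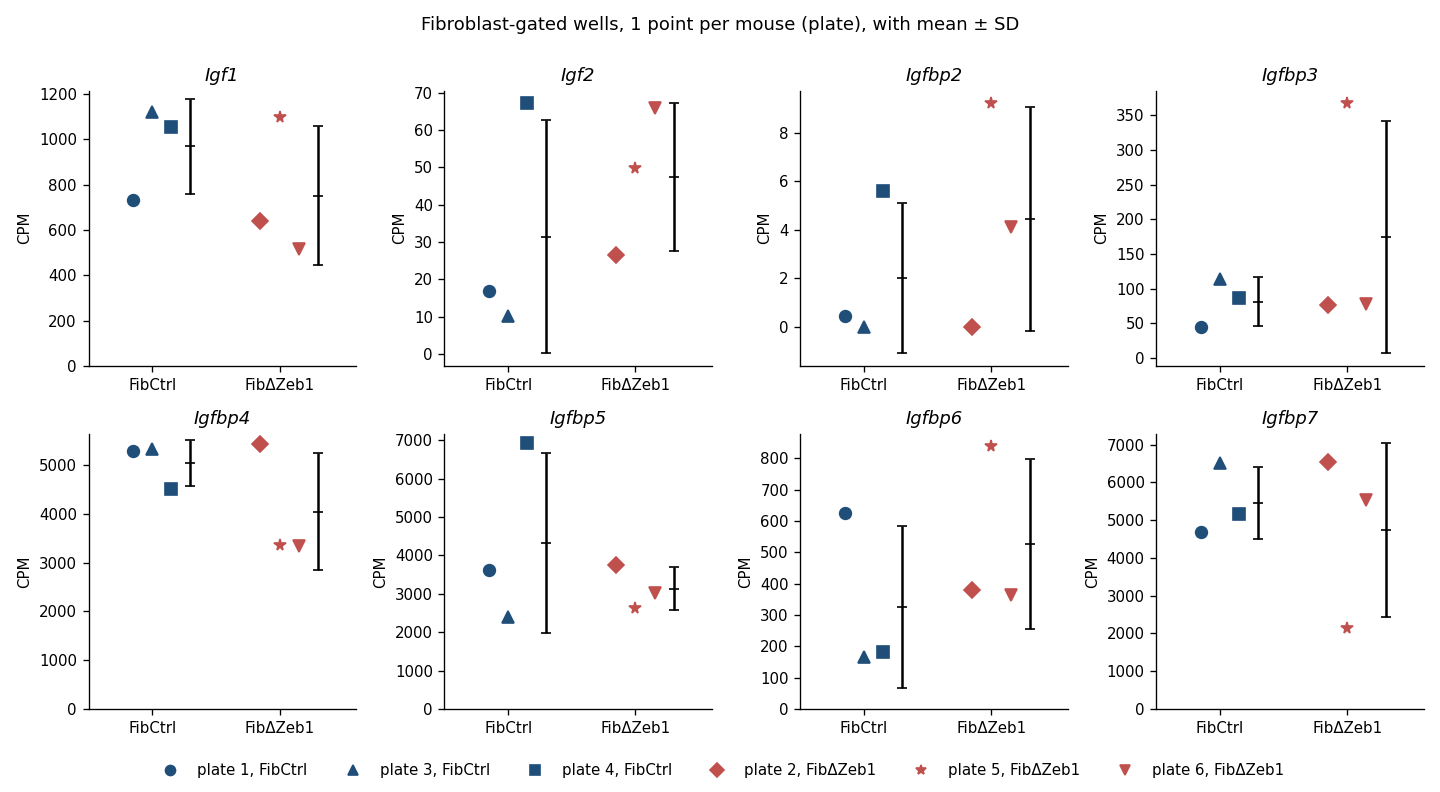
Levels in CPM over the fibroblast-gated wells of each mouse, 1 point per plate, with mean ± SD of the 3 mice beside the points. The genotypes overlap for each of the 8 genes, and the highest *Igfbp3* and *Igfbp6* and the lowest *Igfbp7* value belong to FibΔZeb1 plate 5.

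Plate 5 set the means of 2 other binding proteins. *Igfbp3* was at 44.2, 114 and 86.7 CPM in FibCtrl and at 77.0, 368 and 78.1 CPM in FibΔZeb1 mice (log2 fold change 1.28, SE 0.66), and without plate 5 the log2 fold change was 0.021. *Igfbp6* was at 625, 167 and 183 against 378, 840 and 362 CPM (log2 fold change 0.69, SE 0.59), and leaving out 1 mouse moved this between 0.11 and 1.69. The highest *Igfbp6* values were those of plates 1 and 5, in which 79 of 183 and 93 of 134 fibroblast wells were iCAF-like, against 8 of 64 in plate 4 and 50 of 195 in plate 2. Plate 3, with the lowest *Igfbp6* level, had 6 of 22 and plate 6 had 4 of 15, so that the level did not follow this share in every plate. The part of this difference in subtypes in the genotype values was not tested.

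*Igf2* was at 16.8, 10.0 and 67.1 CPM in FibCtrl and at 26.5, 49.7 and 65.9 CPM in FibΔZeb1 mice (log2 fold change 0.48, SE 0.61). *Igfbp2*, with 0 to 5.59 and 0 to 9.21 CPM, was too low for the model. Exact two-sided permutation tests of the means gave p = 0.30 for *Igf1* and p = 0.40 to 0.90 for the other members. All adjusted p-values of the 7 members tested were 0.9997 in edgeR. None of the 8781 genes was called (0%), with 125 at an unadjusted p under 0.05 in edgeR and 0 called, 78 unadjusted, in DESeq2. Within the sequencing run of the other 5 plates, that is without plate 6, the log2 fold changes of the 7 members kept their direction, from -0.38 for *Igfbp5* to 1.59 for *Igfbp3*, and 0 genes were called in edgeR (175 unadjusted). Groups of mice did not overlap for 6.3% of these genes and for 0 of 8 members, and among the receptors for *Insr* alone (24.5 ± 2.87 against 20.9 ± 0.325 CPM, SD, n = 3 each, exact permutation p = 0.10). None of the 18 other pathway genes that could be tested was called, with a median log2 fold change of 0.19 against 0.01 for all genes.

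Summed over all kept wells of a mouse, the levels also reflect how many fibroblasts were in the plate, and fewer cells of a type and less RNA per cell cannot be told apart. *Igf1* was at 666, 527 and 658 CPM in FibCtrl and at 561, 748 and 198 CPM in FibΔZeb1 mice, the lowest in plate 6 with 15 fibroblast wells of 109. Exact permutation p-values of the members were 0.40 to 0.90, and 0 of 10424 genes were called in edgeR (0%, 73 unadjusted), while DESeq2 called 1 (61 unadjusted).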

How the data were processed

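Single-cell libraries of 6 plates were made by SORT-seq with CEL-Seq2 chemistry and sequenced on a NextSeq 500. Per the study's methods the authors aligned reads with bwa to GRCm38, and the submitters' processing notes also list Cell Ranger 2.1.1. The deposited transcript tables hold expected counts, estimated by the authors from the number of barcodes, and the deposited barcode tables hold whole-number counts of barcodes per gene and well. Spike-ins (7.85% to 18.6% of transcripts) were left out. No doublet caller was run, since 1 cell was sorted per well.

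Wells with 100 to 6000 genes and under 10% mitochondrial transcripts were kept, and gated by summed marker genes. Of these wells, 44 of 1233 lay near the cut between cell types, and 31 of 613 fibroblast wells near that between subtypes. Members, marker and pathway lists were chosen with earlier results of these data known. Expected counts were summed per plate and gate (at least 10 wells), rounded, and tested with edgeR 4.0.16 (quasi-likelihood, TMM, R 4.3.3) with Benjamini-Hochberg adjustment over all genes passing its expression filter, at 0.05. Genotypes were compared with 3 mice each, gates with the plate as a block. DESeq2 1.42.0, other size factors, filters, gates and left-out plates were alternatives, and the scripts were tested on simulated data. Pathway genes were named where they encode a receptor or *Pappa*, and otherwise by the smallest adjusted p. Correlations used log2(CPM + 1). Plates come from separate mice per the study's methods, and p-values between genotypes measure the spread between mice. Those of the gate contrasts measure the spread between libraries that is left after the plate block. Totals were 1575730 to 3699060 transcripts per plate. Promoter windows were taken from RefSeq and gene positions from the GENCODE annotation of GRCm38.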

Additional observations from a re-analysis of the deposited data

Results flagged for a closer look

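In 3 cases the difference between gates went in opposite directions in plates of the genotypes with at least 10 wells in both gates, which were a single FibΔZeb1 plate and 1 or 2 FibCtrl plates. They came from a search over all 8 genes in 4 pairs of gates, and the share among all genes was not computed. The difference between genotypes was not tested in any of these cases. *Igfbp3* was higher in iCAF-like than in telocyte-like wells of FibCtrl plate 1 (33.0 against 13.03 CPM) and lower in FibΔZeb1 plate 2 (21.3 against 134 CPM), a difference of -3.87 on log2(CPM + 1). *Igfbp5* in the same gates was lower in plate 1 (1976 against 3488 CPM) and higher in plate 2 (3677 against 3030 CPM), a difference of 1.099. *Igfbp3* was lower in telocyte-like than in Cxcl13/Grem1 wells of FibCtrl plates 1 (13.03 against 80.6 CPM) and 4 (89.4 against 171 CPM) and higher in FibΔZeb1 plate 2 (134 against 90.7 CPM), a difference of 2.29. For iCAF-like against telocyte-like wells, plates with 5 to 9 wells in a gate did not all follow the genotype. In FibΔZeb1 plate 5, with 8 telocyte-like wells, iCAF-like against telocyte-like levels were 487 against 131 CPM for *Igfbp3* and 819 against 10567 CPM for *Igfbp5*, the directions of FibCtrl plate 1. In FibCtrl plate 4, with 8 iCAF-like wells, *Igfbp5* was at 9642 against 6780 CPM and *Igfbp3* at 0 against 89.4 CPM, opposite to plate 1. A pattern by genotype is thus not shown for this pair of gates. For *Igfbp3* in telocyte-like against Cxcl13/Grem1 wells, the smaller groups had 74.1 against 218 CPM in FibCtrl plate 3, 131 against 45.5 CPM in FibΔZeb1 plate 5 and 137 against 50.7 CPM in FibΔZeb1 plate 6, the directions of the larger plates of their genotype. These values rest on 4 to 16 transcripts each, and the Cxcl13/Grem1 values of plates 3 and 6 each came from 1 of 5 wells. A pattern by genotype is thus not shown for this pair either.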

How the results depend on the processing

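Of 602 values of member fold changes under alternatives, 532 kept their direction and side of the threshold, 13 lost and 25 gained significance, and 32 changed sign, none of these among the called contrasts. The calls for *Igf1*, *Igfbp4*, *Igfbp5* and *Igfbp6* in pericyte-like wells held in all 13 alternatives. No paired analysis of the genotypes was made, because the sample labels do not pair mice between them. The pericyte-like contrast could not be fitted with at least 20 wells per library or with the gate margin, and an arm with 1 plate left was assumed to vary like the others. The alternatives without *Myoc* and *Angptl7* wells, with subtype-gated wells only and without neutrophil-like wells were chosen after seeing the data. The cause of the changes below was not tested.

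With DESeq2, 681 genes were called for iCAF-like against telocyte-like (1174 in edgeR), 173 for iCAF-like against Cxcl13/Grem1 (380), 449 for telocyte-like against Cxcl13/Grem1 wells (712) and 1 between genotypes in all kept wells (0). For iCAF-like against Cxcl13/Grem1 wells there were 593 without a filter on low sums, 739 with the outlier filter on mitochondrial transcripts and 748 with the gate margin. Leaving out 1 plate gave 879 to 1562 genes for pericyte-like wells and, in the order above, 351 to 1312, 65 to 448 and 317 to 676 genes, and 0 to 0 between genotypes. Without thinning, *Igf1* was found in 81.1% of telocyte-like wells (48.0% at 1000 and 33.9% at 500 barcodes), *Igf2* in 20% (3.57%), *Igfbp4* in 100% (99.3%) and *Igfbp5* in 99.3% of Cxcl13/Grem1 wells (92.1%, and 84.3% at 500), and *Igfbp3* in 20% (11.2%, and 6.67% at 500) and *Igfbp6* in 92.5% of iCAF-like wells (54.2%, and 37.5% at 500). *Igfbp2* was in 4.55% of epithelial-like wells at 500 barcodes (10.6%). Of the 24 most similar genes, 4 were shared with Spearman correlation.

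Log2 fold changes that changed sign with the outlier filter were those of *Igfbp5* between genotypes in fibroblast wells (0.13) and iCAF-like against telocyte-like (0.088), *Igf1* iCAF-like against Cxcl13/Grem1 (-0.48), and *Igfbp3* (0.54), *Igfbp6* (-0.013) and *Igfbp7* (-0.12) telocyte-like against Cxcl13/Grem1. The last was -0.021 with barcode counts, -0.10 with the gate margin and -0.050 with at least 5 wells, which also gave 0.025 for *Igfbp3* iCAF-like against telocyte-like and -0.46 for *Igf1* iCAF-like against Cxcl13/Grem1. The gate margin gave -0.0056 for *Igfbp4* iCAF-like against telocyte-like. Leaving out 1 plate moved the genotype value in fibroblast wells from -0.73 to 0.024 for *Igfbp5* and from -0.50 to 0.15 for *Igfbp7*. In all kept wells the ranges were -0.77 to 0.0022 for *Igf1*, -0.15 to 0.57 for *Igf2*, -0.083 to 1.495 for *Igfbp3*, -0.93 to 0.014 for *Igfbp4*, -0.24 to 1.64 for *Igfbp6* and -0.98 to 0.14 for *Igfbp7*. For iCAF-like against telocyte-like they were -0.42 to 0.17 for *Igf1*, -2.23 to 0.80 for *Igfbp3* and -0.94 to 0.11 for *Igfbp5*, and *Igf1* had -0.067 to 0.52 for iCAF-like against Cxcl13/Grem1. For telocyte-like against Cxcl13/Grem1 they were -0.011 to 0.95 for *Igf1*, -0.71 to 0.68 for *Igfbp6* and -0.11 to 0.097 for *Igfbp7*.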

Other observations

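Outside the fibroblast and pericyte-like gates, the 7 smooth muscle-like wells of plate 1 had *Igfbp5* at 2755, *Igfbp7* at 1846 and *Igf1* at 182 CPM. The 3, 2 and 2 such wells of plates 2, 4 and 5 were lower, with *Igfbp5* at 232, 699 and 1024 CPM and *Igf1* at 42.1, 99.8 and 0 CPM, from few transcripts. The 16 epithelial-like wells with an *Igfbp2* transcript had *Krt14* at 1892 and *Krt8* at 438 CPM. The 72 without had *Krt14* at 1043 and *Krt8* at 2226 CPM. *Krt5*, another keratin of the epithelial list, went the other way from *Krt14*, at 805 CPM with and 1443 CPM without *Igfbp2*. The wells with *Igfbp2* were deeper, with a median of 14558 against 9363 transcripts per well.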
